A study of Mus musculus with 8 samples.

Results

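Cholesterol and fatty acid synthesis genes were examined in the ventricular heart of mouse embryos with a frameshift deletion in Atf4, a transcription factor gene. ATF4 protein was not read here. The set holds 30 genes chosen by name from the 52778 features of the deposited table: 17 enzymes of the sterol pathway, the sterol carrier gene Stard4, 5 genes that control the pathway and 7 genes of fatty acid synthesis. All 30 members had at least 1 TPM (a measure of transcript abundance that corrects for the length of the transcript and the total of the library) in at least 4 libraries and were therefore among the 15545 genes tested. The list is not the whole pathway, and its other enzymes are not analysed here.

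The 8 libraries came from embryos at day 11.5. Of these, 4 are labelled control and 4 come from Atf4(del7/del7) embryos, in which CRISPR/Cas9 removed 7 bases of exon 3 of Atf4 in all cells and shifted the reading frame. The genotype field reads C57BL/6 WT for both groups, so the grouping rests on the titles, which the treatment field (Control or ATF4 global knockout) matches. No sample received any drug, and the sex, litter and parental genotypes are not given in the sources used here. Sample protocols also mention cultured cortical neurons and ribosomal RNA depletion, whereas the design text describes dissected ventricles and a stranded mRNA library kit.

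Cells build cholesterol from acetyl-CoA through mevalonate, squalene and lanosterol, and they build fatty acids from the same precursor through malonyl-CoA. Both routes are switched on by the SREBP transcription factors, which SCAP carries from the endoplasmic reticulum to the Golgi for cleavage and which the INSIG proteins hold back when sterols are plentiful. SREBP-2 (gene Srebf2) acts mainly on sterol genes and SREBP-1 (gene Srebf1) mainly on fatty acid genes. ATF4 is the effector of the integrated stress response, best known for driving amino acid synthesis and transport genes.

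The promoters of 4 members are shown here because they carry the short elements discussed with the results or belong to genes singled out below. Each is 300 bases long, from 250 before to 50 after a RefSeq transcript start on GRCm38.p6, written 5′ to 3′ on the strand of the gene. Capitals mark matches on either strand to 3 motifs: the core of the sterol regulatory element bound by SREBP (TCACNCCAC), the CCAAT box bound by NF-Y, a partner of SREBP at sterol genes (CCAAT), and a composite element of the kind bound by ATF4 with C/EBP proteins (TGATGNAA). No printed match overlaps another. Hmgcs1 lies at chr13:119690101-119690400 on the plus strand, Idi1 at chr13:8885356-8885655 on the plus strand, Dhcr7 (the most downstream of its 3 listed starts) at chr7:143829964-143830263 on the plus strand and Ebp at chrX:8193463-8193762 on the minus strand.
Hmgcs1: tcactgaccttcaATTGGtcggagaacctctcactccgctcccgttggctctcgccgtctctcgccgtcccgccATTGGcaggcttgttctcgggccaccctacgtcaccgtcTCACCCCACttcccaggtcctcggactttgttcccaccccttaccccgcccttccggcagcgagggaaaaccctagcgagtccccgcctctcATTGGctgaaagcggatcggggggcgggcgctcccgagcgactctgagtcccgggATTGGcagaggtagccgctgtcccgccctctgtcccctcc
Idi1: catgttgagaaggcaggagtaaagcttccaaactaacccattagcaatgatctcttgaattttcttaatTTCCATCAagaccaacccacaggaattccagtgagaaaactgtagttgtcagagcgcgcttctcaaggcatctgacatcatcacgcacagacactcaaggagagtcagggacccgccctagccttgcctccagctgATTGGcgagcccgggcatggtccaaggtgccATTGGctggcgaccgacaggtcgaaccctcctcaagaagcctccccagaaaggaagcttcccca
Dhcr7: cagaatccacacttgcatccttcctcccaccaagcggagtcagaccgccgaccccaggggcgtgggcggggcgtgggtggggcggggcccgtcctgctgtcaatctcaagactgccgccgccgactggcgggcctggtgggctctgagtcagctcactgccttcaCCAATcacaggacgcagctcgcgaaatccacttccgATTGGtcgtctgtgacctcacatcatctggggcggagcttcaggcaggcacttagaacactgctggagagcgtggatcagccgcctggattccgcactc
Ebp: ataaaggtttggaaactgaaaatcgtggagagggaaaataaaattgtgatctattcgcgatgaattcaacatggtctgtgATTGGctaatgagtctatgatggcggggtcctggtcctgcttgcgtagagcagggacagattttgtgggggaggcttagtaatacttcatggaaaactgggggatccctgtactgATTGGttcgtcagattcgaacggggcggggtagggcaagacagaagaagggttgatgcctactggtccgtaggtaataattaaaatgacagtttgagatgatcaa

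The window of Hmgcs1 held the only sterol element core found among the members, at position -137 from the start, together with 4 CCAAT boxes. The composite element occurred at position -181 of Idi1 and in windows of 2 of the 3 Insig2 starts. The windows printed for Dhcr7 and Ebp held 2 CCAAT boxes each and neither of the other motifs. The other 2 windows of Dhcr7, at the 5′ end of the gene, overlap each other and hold 0 matches to any of the 3 motifs. RefSeq windows were found for 24 of the 30 members, 32 windows in all. Among these windows, 1 held the sterol element core (3.13%, against 1.24% of all 32851 windows), 23 held a CCAAT box (71.9% against 37.4%) and 3 held the composite element (9.38% against 3.97%). Windows of 1 gene can overlap, the shares were not tested, and a match of letters is a description, not a site.

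Expression was read as deposited, and the summed TPM ranged from 923473 to 949762 per library. Read depth is unknown, so error is given only as the spread between replicates. The design text calls the replicates biological but does not say whether they came from separate litters. Atf4 transcript was measured at 105 to 121 TPM in control and 148 to 185 TPM in mutant libraries (log2 fold change 0.57, limma adjusted p of 0.0430). With 1 library left out at a time the log2 fold change was 0.51 to 0.62 and the adjusted p 0.0457, without mutant replicate 4, to 0.179. Since TPM of the whole transcript does not show a deletion of 7 bases, this level does not check the genotype labels. Ventricular cardiomyocyte markers were abundant in every library, with a summed level of 38047 to 41692 TPM over 10 genes, all of which were tested. The liver and fat are major sites of these pathways in the adult, so their markers were read too. The 9 hepatocyte markers summed to 2.67 to 4.22 TPM in control and 3.24 to 4.64 TPM in mutant libraries. Alb and Hnf4a were listed at 0 in 7 libraries and at 0.0272 and 0.00048 TPM in mutant replicate 1, and Ttr and Apob were above 0 but below 1 TPM in each library. Apoa2, the 1 hepatocyte marker tested, held 1.52 to 2.41 TPM in the controls and 2.11 to 3.08 TPM in mutants (log2 fold change 0.28, limma unadjusted p of 0.0601 and adjusted p of 0.832). The 7 adipocyte markers summed to 80.7 to 86.2 TPM and 73.6 to 88.9 TPM. Of that sum Lpl alone made up 72.8 to 86.1 TPM and Fabp4 0.556 to 2.46 TPM. Adipoq was above 0 in 7 libraries but at most 0.377 TPM, and Pparg held 0.0277 to 0.0574 TPM. Cidec was listed at 0.0398 TPM in control replicate 2 and at 0 in the rest, and Plin1 and Lep were listed at 0. Macrophage and erythroid markers differed more between the groups, but 0 in either list had an adjusted p below 0.05. The summed macrophage level was 17.7 to 26.3 TPM in control and 12.0 to 16.7 TPM in mutant libraries, with 6 of 7 tested markers lower. Of the 7, C1qb, Mrc1 and Cx3cr1 had a limma unadjusted p below 0.05 (0.0045, 0.0015 and 0.0013), against 6.10% of all genes tested. In these 3 the mutants also lay wholly below the controls, as in 2.05% of all genes. Over the 10 erythroid markers the sums were 4675 to 7965 TPM and 4365 to 6076 TPM and overlapped, with 8 lower. Of the 10, 2 had a limma unadjusted p below 0.05. The part of these cell types in the results below was not tested. In bulk tissue fewer cells of a type cannot be told apart from less RNA per cell.

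No member passed the threshold between the genotypes. In limma on log2(TPM + 1), 0 of 30 members had an adjusted p below 0.05, while 6 of all 15545 genes did (0.0386%). The smallest adjusted p among the members was 0.780, for Dhcr7. At an unadjusted p below 0.05 there were 4 members (13.3%), against 949 of all genes tested (6.10%). These were Dhcr7, Idi1 and Fdps, with higher values in the mutants, and Hsd17b7, with lower ones. The count was 1 without mutant replicate 4 and 2 without any one of control replicates 2 and 4 and mutant replicates 1 and 2. The 4 mutant libraries lay wholly above the 4 controls in 1 member, Dhcr7 (3.33%, against 1.63% of all genes), and wholly below them in 2, Ebp and Acacb (6.67%, against 2.05% of all genes). These counts are small and were not tested against the background. The median log2 fold change was 0.018 over the 30 members and -0.0033 over all genes. In 24 of the 30 members (80%) the log2 fold change was within 0.1 of 0, as it was in 71.6% of all genes tested.

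**Figure D1:**
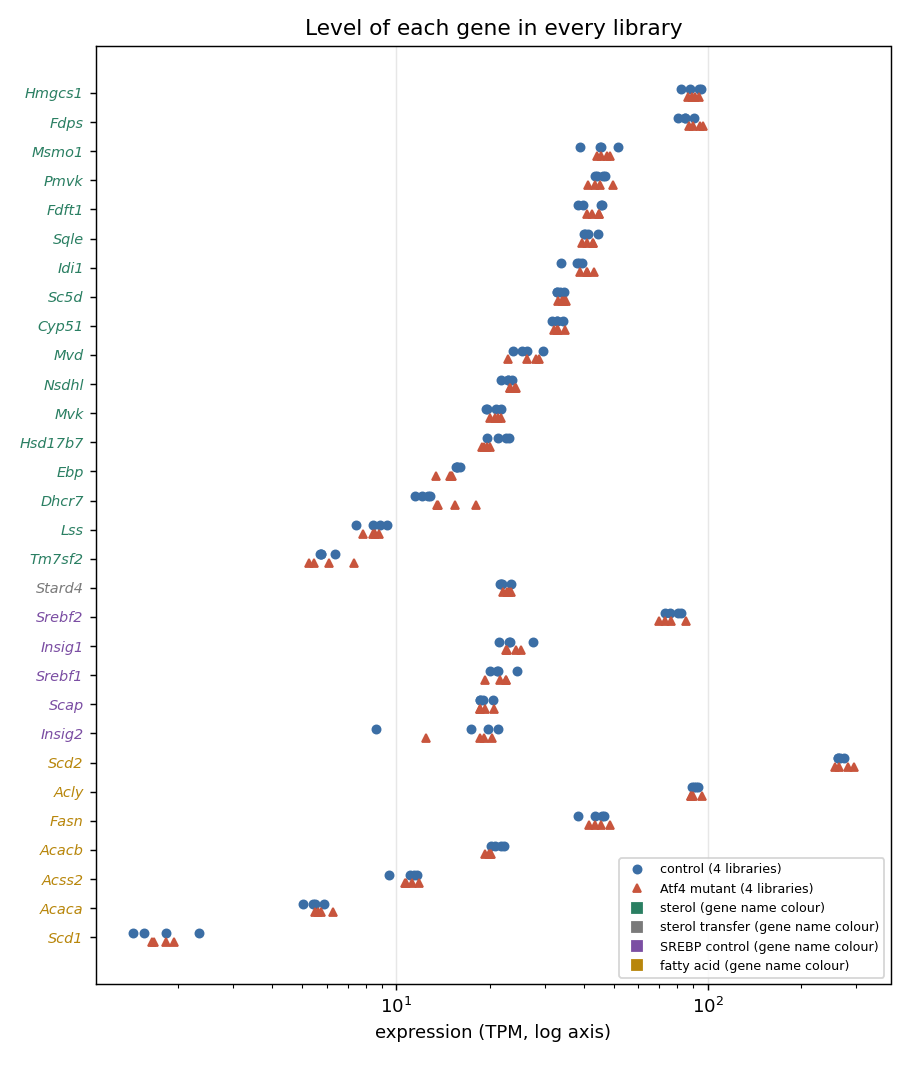
Expression of the 30 genes in TPM on a log axis, 1 point per library (circles, 4 control; triangles, 4 Atf4 mutant), with genes grouped by role and ordered by level. Levels run from 1.42 TPM for Scd1 to 296 TPM for Scd2, and for most genes the points of both genotypes overlap.

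The first 6 enzymes make farnesyl diphosphate from acetyl-CoA units by way of mevalonate. Hmgcs1 encodes the synthase that joins acetyl-CoA to acetoacetyl-CoA and is among the best known SREBP targets. It held 87.5, 95.3, 93.7 and 82.1 TPM in control and 91.0, 89.4, 86.3 and 94.2 TPM in mutant libraries. All mutant values lay inside the control range. The log2 fold change was 0.01 (95% interval -0.10 to 0.13, limma adjusted p of 0.992).

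Idi1, which isomerises isopentenyl diphosphate, is the member with a composite element in its printed window. Its controls held 38.0, 38.6, 39.5 and 33.8 TPM and its mutants 40.9, 40.9, 39.0 and 43.1 TPM. Only mutant replicate 3 fell within the control range, and control replicate 4 was the lowest of all libraries. The log2 fold change was 0.13 (95% interval 0.01 to 0.25, limma unadjusted p of 0.0426 and adjusted p of 0.809), or 0.081 without control replicate 4. Fdps, the farnesyl diphosphate synthase gene on chromosome 3 (bases 89093588 to 89101967), held 84.3, 84.9, 90.6 and 80.6 TPM in control and 96.3, 89.8, 87.4 and 94.8 TPM in mutant libraries. Here control replicate 3 lay above the mutant replicates 2 and 3, so the groups overlapped. Its log2 fold change was 0.11 (95% interval 0.01 to 0.22, limma unadjusted p of 0.0360 and adjusted p of 0.809).

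The remaining enzymes of this stretch act on mevalonate and its phosphates: Mvk phosphorylates mevalonate, Pmvk phosphorylates the product again and Mvd then removes the carboxyl group. Mvk averaged 20.4 ± 1.08 TPM in control and 20.9 ± 0.745 TPM in mutant libraries (SD, n = 4 each). Pmvk averaged 45.2 ± 1.55 and 45.0 ± 3.55 TPM, and Mvd 26.2 ± 2.45 and 26.5 ± 2.69 TPM. Each difference was smaller than the SD of either group. Across the 6 genes, 5 fold changes were positive and 1 negative, with a median log2 fold change of 0.024.

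Squalene and lanosterol are made by the next 3 enzymes: Fdft1 joins farnesyl units into squalene, Sqle oxidises it in a rate-limiting step, and Lss closes the ring system. Sqle held 41.3, 44.4, 40.3 and 40.1 TPM in control and 42.9, 39.6, 41.0 and 42.8 TPM in mutant libraries. The groups overlapped over most of their ranges, and the log2 fold change was 0.0024 (95% interval -0.10 to 0.11, limma adjusted p of 0.998). Fdft1 averaged 42.4 ± 3.81 and 43.2 ± 1.94 TPM (SD, n = 4 each), and it overlaps Ctsb on the opposite strand, at a mean of 119 TPM, so its level is uncertain if reads were counted without strand. Lss was the second least abundant sterol enzyme, at 8.52 ± 0.806 TPM in control and 8.40 ± 0.425 TPM in mutant libraries.

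Conversion of lanosterol to cholesterol takes the last 8 enzymes of the list, and the members with the largest differences in both directions stood here. Dhcr7 encodes the reductase that yields cholesterol at the end of the pathway (chromosome 7, bases 143823167 to 143848410, plus strand). Its controls held 12.7, 11.5, 12.1 and 12.8 TPM and its mutants 15.5, 13.5, 13.7 and 18.1 TPM. The lowest mutant lay 0.721 TPM above the highest control, and mutant replicate 4 was the highest. The means were 12.3 ± 0.632 and 15.2 ± 2.12 TPM (SD, n = 4 each), 24.0% higher in the mutants, and the log2 fold change was 0.28 (standard error 0.0894, 95% interval 0.08 to 0.48). The limma unadjusted p was 0.0112 and the adjusted p 0.780, so the difference did not pass over all genes. Leaving out 1 library at a time gave log2 fold changes of 0.20, without mutant replicate 4, to 0.33. No other listed feature overlaps Dhcr7.

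Hsd17b7 and Ebp lay on the other side. Hsd17b7, a ketosteroid reductase that acts during removal of the methyl groups (chromosome 1, bases 169949535 to 169969242, minus strand), held 21.2, 22.5, 23.0 and 19.5 TPM in the controls. Its mutants held 20.0, 18.9, 19.5 and 19.2 TPM. Control replicate 4 lay within the mutant range and the other controls above it. The log2 fold change was -0.14 (95% interval -0.27 to -0.02, limma unadjusted p of 0.0311 and adjusted p of 0.809). Ebp, the sterol isomerase gene (chromosome X, bases 8185329 to 8193512, minus strand), held 15.7, 15.7, 16.0 and 15.6 TPM in control and 15.1, 14.9, 13.5 and 14.97 TPM in mutant libraries. All mutants lay below all controls, by a gap of 0.486 TPM, and mutant replicate 3 stood lowest. The log2 fold change was -0.10 (95% interval -0.22 to 0.01, limma unadjusted p of 0.0784 and adjusted p of 0.841), or -0.065 without that library. Neither gene shares bases with another listed feature.

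**Figure D2:**
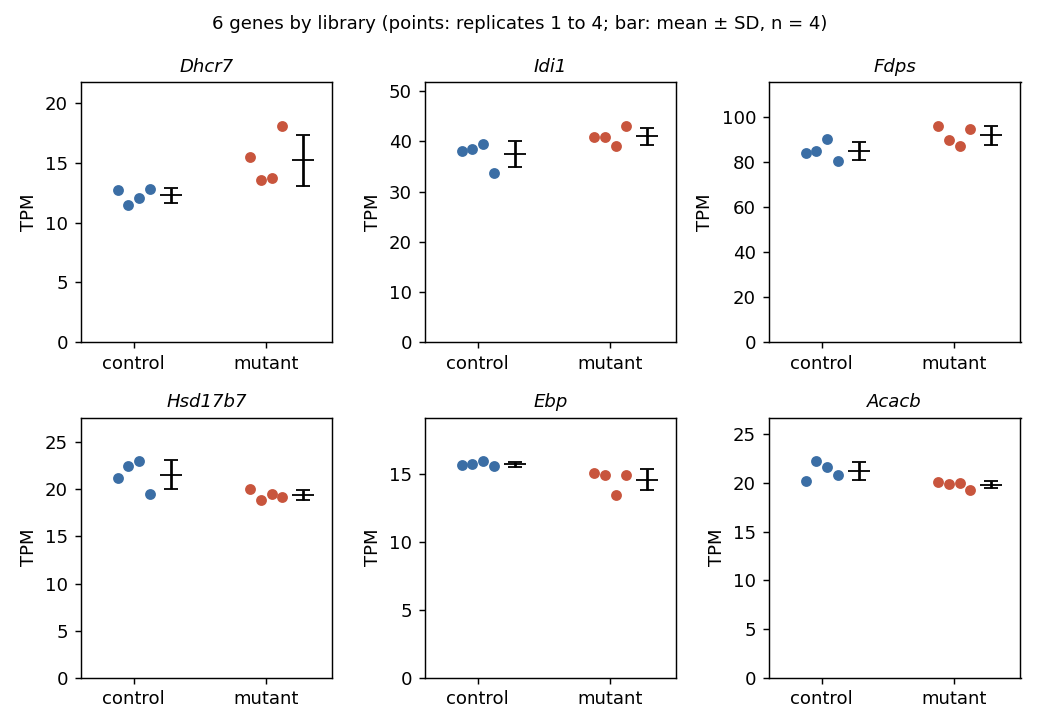
TPM per library for Dhcr7, Idi1, Fdps, Hsd17b7, Ebp and Acacb, with the mean and SD of each group (n = 4); each vertical axis starts at 0. Dhcr7 is higher in all 4 mutants, Ebp and Acacb are lower in all 4, and the other 3 genes overlap between the groups.

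The other 5 enzymes of this stretch differed little. Cyp51, which removes the first methyl group from lanosterol, averaged 33.0 ± 1.05 and 33.2 ± 1.15 TPM (SD, n = 4 each). Msmo1 and Nsdhl, which act together on the next methyl groups, averaged 45.3 ± 5.19 and 46.4 ± 2.06 TPM and 22.7 ± 0.750 and 23.7 ± 0.584 TPM. Sc5d, the desaturase that supplies the substrate of Dhcr7, held 32.9 to 34.7 TPM in control and 33.0 to 35.0 TPM in mutant libraries. Its interval was among the narrowest, with a log2 fold change of 0.03 (95% interval -0.06 to 0.11). Tm7sf2, a sterol reductase, had the lowest level of the 17 enzymes, at 5.88 ± 0.320 and 6.03 ± 0.923 TPM. It overlaps Vps51 on the same strand, at a mean of 26.3 TPM, so reads could be shared. Lbr, whose protein has the same reductase activity, was measured at 54.2 ± 2.57 and 54.9 ± 1.66 TPM, far above Tm7sf2 in each library.

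Per library, the 17 sterol enzymes were high or low together in some libraries of each genotype. Counting, for each library, the enzymes above their own median over the 8 libraries gave 7, 10, 10 and 3 of 17 in the controls and 13, 6, 6 and 13 of 17 in the mutants. Control replicate 4 was therefore low in most of the enzymes, and mutant replicates 1 and 4 were high in most, and the ranges of the groups overlapped. Their summed level was 580, 609, 602 and 554 TPM in control and 610, 589, 579 and 628 TPM in mutant libraries. Stard4, a carrier that moves sterols between membranes, averaged 22.1 ± 0.848 and 22.8 ± 0.625 TPM, with a log2 fold change of 0.04 (95% interval -0.06 to 0.14, limma adjusted p of 0.937).

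Among the genes that control the pathway, the transcripts of both SREBP genes were at similar levels in the 2 genotypes. Srebf2 held 76.0, 82.3, 72.8 and 80.2 TPM in control and 85.4, 69.7, 76.1 and 73.0 TPM in mutant libraries, so the mutants spanned a wider range on both sides. Its log2 fold change was -0.04 (95% interval -0.18 to 0.11, limma adjusted p of 0.964). Srebf1 averaged 21.7 ± 1.92 and 21.5 ± 1.54 TPM (SD, n = 4 each) and overlaps Rai1 on the opposite strand, at a mean of 35.4 TPM. The ratio of Srebf2 to Srebf1 was 3.36 to 3.77 in the controls and 3.09 to 3.94 in the mutants. Scap, the escort of the SREBPs, averaged 19.2 ± 0.904 and 19.2 ± 0.964 TPM. These values concern transcripts, and the cleavage that activates SREBPs is not visible in them.

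The INSIG genes differed from each other in spread. Insig1, itself an SREBP target that responds within the feedback loop, held 23.0, 23.2, 27.5 and 21.4 TPM in control and 24.3, 22.5, 22.7 and 25.2 TPM in mutant libraries. All mutants lay within the control range, whose top was control replicate 3, and the log2 fold change was 0.00039 (95% interval -0.17 to 0.17). Insig2 held 21.3, 17.4, 8.61 and 19.7 TPM in control and 19.2, 20.2, 18.6 and 12.5 TPM in mutant libraries. Control replicate 3 and mutant replicate 4 were low, and the other 6 libraries lay between 17.4 and 21.3 TPM. The resulting interval was the widest of the 30, from -0.45 to 0.69 around a log2 fold change of 0.12 (limma adjusted p of 0.973). Without control replicate 3 the log2 fold change was -0.15. The ratio of Insig1 to Insig2 was 3.19 in control replicate 3 and 2.02 in mutant replicate 4, against 1.08 to 1.33 in the other libraries.

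Fatty acid synthesis starts with the supply of cytosolic acetyl-CoA, by Acly from citrate and by Acss2 from acetate. Acly held 89.4, 91.5, 92.9 and 90.2 TPM in control and 95.7, 89.5, 88.4 and 88.3 TPM in mutant libraries. The groups overlapped, with mutant replicate 1 above all controls and replicates 3 and 4 below them. The log2 fold change was -0.0088 with the narrowest interval of the set, -0.09 to 0.07 (limma adjusted p of 0.989). Acss2 was about an order of magnitude less abundant, at 10.9 ± 0.966 and 11.1 ± 0.541 TPM (SD, n = 4 each). Fasn, the synthase that builds palmitate, held 43.5, 45.9, 38.4 and 46.4 TPM in control and 48.7, 45.4, 43.6 and 41.8 TPM in mutant libraries. Its log2 fold change was 0.04 (95% interval -0.11 to 0.20, limma adjusted p of 0.960).

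Acetyl-CoA carboxylase makes malonyl-CoA in 2 forms. The product of Acaca feeds fatty acid synthesis in the cytosol, whereas that of Acacb, at the mitochondrial surface, restrains fatty acid entry for oxidation and is prominent in adult heart and muscle. Acacb (chromosome 5, bases 114146321 to 114250761) held 20.2, 22.3, 21.6 and 20.8 TPM in control and 20.1, 19.9, 20.1 and 19.3 TPM in mutant libraries. All mutants lay below all controls, but the gap was only 0.0624 TPM, and control replicate 1 sat next to the mutants. The log2 fold change was -0.09 (95% interval -0.19 to 0.01, limma unadjusted p of 0.0740 and adjusted p of 0.841). Acaca averaged 5.45 ± 0.334 and 5.78 ± 0.332 TPM (SD, n = 4 each), with a log2 fold change of 0.07 (95% interval -0.09 to 0.23). It overlaps Tada2a on the opposite strand, at a mean of 23.0 TPM. In TPM, a unit per length, Acacb exceeded Acaca by a ratio of 3.45 to 4.30 in the controls and 3.22 to 3.55 in the mutants. These ratios overlapped between the genotypes.

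The stearoyl-CoA desaturases, which put the first double bond into saturated fatty acids, spanned the whole range of levels in the set. Scd2 was the most abundant member, at 263, 275, 263 and 266 TPM in control and 296, 264, 283 and 256 TPM in mutant libraries. The mutant range enclosed the control range, and the log2 fold change was 0.04 (95% interval -0.06 to 0.14, limma adjusted p of 0.942). Without mutant replicate 1, which held the highest level, it was 0.0030. Scd1, the form that dominates in adult liver and fat, was the least abundant, at 1.42, 1.83, 2.33 and 1.55 TPM in control and 1.64, 1.67, 1.82 and 1.93 TPM in mutant libraries. The ratio of Scd2 to Scd1 was 113 to 184 in the controls and 133 to 180 in the mutants. Because the genes are close paralogs, reads could be assigned to the wrong copy. The microRNA feature Mir5114 lies inside Scd2 on the same strand and was listed at a mean of 330 TPM, so either value can hold reads of the other.

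**Figure D3:**
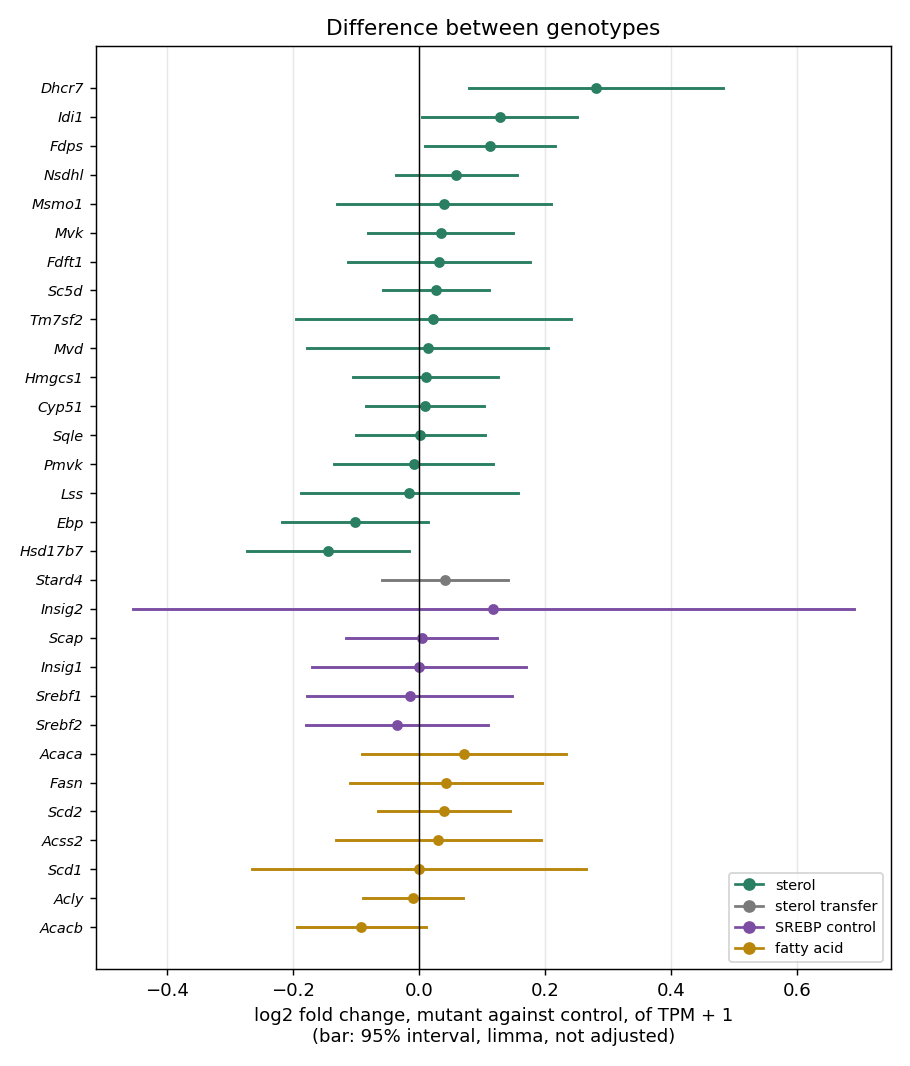
Log2 fold change of TPM + 1, mutant against control, for the 30 genes, with unadjusted 95% intervals from limma (n = 4 per group), coloured by role. The intervals of Dhcr7, Idi1 and Fdps lie above 0 and that of Hsd17b7 lies below 0, while no member passed after adjustment over 15545 genes.

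The intervals show how large a difference the data leave room for. In 19 of the 30 members the unadjusted 95% interval lay wholly between -0.2 and 0.2 on the log2 scale, and in 28 between -0.3 and 0.3. The exceptions at the wider bound were Dhcr7, at the upper end, and Insig2, at both ends. Among all 15545 genes tested, 6380 had such an interval within 0.2 and 10086 within 0.3. These counts were not matched to the expression level of the members. The intervals are not adjusted for the number of genes, and a p above the threshold does not show that levels were equal.

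The sterol and fatty acid branches were then set side by side. Of the 17 sterol enzymes, 13 had a positive and 4 a negative log2 fold change, with a median of 0.023 and a range from -0.14 to 0.28. The sterol median changed sign, to -0.0089, without control replicate 4 and was 0.0095 without control replicate 1. Of the 7 fatty acid genes, 4 were positive and 3 negative, with a median of 0.031 and a range from -0.09 to 0.07. That median fell as low as 0.0030 without mutant replicate 3. All 4 members with an unadjusted p below 0.05 were sterol enzymes, 4 of 17 (23.5%), against 6.10% of all genes tested. The count was 0 of the 7 fatty acid genes, which with so few genes does not set them apart from all genes. The contrast between the branches was not tested. As a mean of log2(TPM + 1) per library, the sterol enzymes held 4.83, 4.89, 4.87 and 4.78 in the controls and 4.90, 4.85, 4.82 and 4.93 in the mutants. The fatty acid genes held 4.59, 4.62, 4.63 and 4.61 in the controls and 4.66, 4.60, 4.63 and 4.59 in the mutants. Both sets of means overlapped between the genotypes.

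Subtracting the fatty acid mean from the sterol mean gave 0.248, 0.274, 0.240 and 0.179 in the controls and 0.233, 0.256, 0.183 and 0.339 in the mutants. The group means were 0.235 ± 0.0400 and 0.253 ± 0.0654 (SD, n = 4 each). The difference of 0.018 was smaller than either SD, and mutant replicate 4, the library with the highest Dhcr7 value, held the largest contrast. Without mutant replicate 4 the difference between genotypes was -0.011, and without control replicate 4 it was -0.0010. The fatty acid mean includes Acacb, whose log2 fold change of -0.09 was the lowest of the 7, and the contrast was not computed without it. The genotypes thus did not differ in the balance of the branches beyond the spread between libraries.

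**Figure D4:**
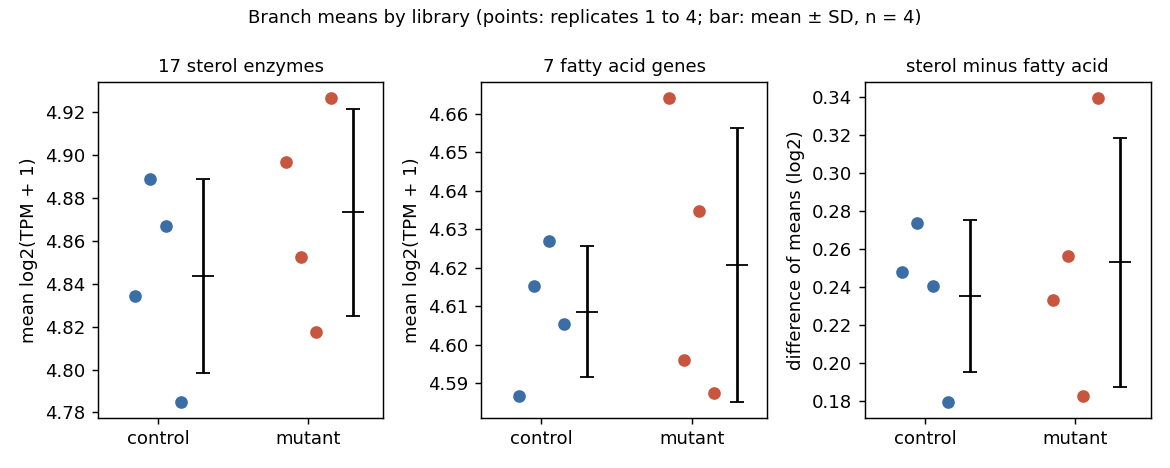
Mean log2(TPM + 1) per library of the 17 sterol enzymes and the 7 fatty acid genes, and the first minus the second, with group mean and SD (n = 4); the vertical axes do not start at 0. The points of the genotypes overlap in each panel, and mutant replicate 4 has the largest contrast, 0.339.

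Neighbouring pathway genes were read from the same fit, in 4 lists with 56 genes, of which 51 were tested and 0 passed the adjusted threshold. At an unadjusted p below 0.05 there was 1 of the 51 (1.96%), against 6.10% of all genes. That gene was Erg28, a scaffold that gathers sterol demethylation enzymes, with 39.1, 41.9, 37.8 and 40.5 TPM in control and 43.8, 45.2, 41.0 and 42.8 TPM in mutant libraries. Mutant replicate 3 fell within the control range and the other mutants lay above it, and the log2 fold change was 0.11 (limma unadjusted p of 0.0314, adjusted p of 0.809). Among the 16 genes beside the sterol pathway, 15 were tested, 7 higher and 8 lower, with a median log2 fold change of -0.012. Dhdds, for the enzyme that makes dolichol precursors, was the only one of the 51 whose groups did not overlap, and is named after its values were seen. The share without overlap was 1.96%, against 3.68% of all genes, counting both directions. The log2 fold change of Dhdds was 0.05 (limma unadjusted p of 0.247 and adjusted p of 0.908). It held 24.7 to 24.9 TPM in control and 25.0 to 26.2 TPM in mutant libraries.

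The lists for elongation and desaturation of fatty acids, for precursor and NADPH supply and for SREBP processing had 13 of 15, 12 of 14 and 11 of 11 genes tested. Positive and negative log2 fold changes numbered 6 and 7, 10 and 2, and 6 and 5, with medians of -0.021, 0.041 and 0.0063. Hacd3, a dehydratase of fatty acid elongation, had the smallest p in the first, at a log2 fold change of 0.06 (limma adjusted p of 0.871). Mecr, a reductase of mitochondrial fatty acid synthesis, led the second at 0.25 (limma adjusted p of 0.841), with controls of 27.2, 19.4, 23.6 and 16.8 TPM against mutants of 26.7, 23.7, 26.1 and 26.3 TPM. Its mutants lay within the control range, whose lower part came from control replicates 2 and 4, and the log2 fold change was 0.14 without control replicate 4. Erlin2, for an endoplasmic reticulum protein that takes part in turnover of sterol-regulated proteins, led the third at -0.07 (limma adjusted p of 0.882), or -0.035 without mutant replicate 4.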

How the data were processed

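Expression values are TPM as deposited by the authors, 1 column per library. The submitters' processing notes name FastQC, Trim Galore 0.6.7, HISAT2 2.2.1, StringTie 2.2.1, featureCounts and DESeq2, and GRCm38 (mm10), without roles. The strand setting of the counting and the annotation are not given in the sources used here. All 30 members had the start and end of their RefSeq GRCm38.p6 gene. The members, lists and tests were chosen with earlier results of these data known.

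The fit kept genes that reached 1 TPM in 4 or more of the 8 libraries. Log2(TPM + 1) was fitted in limma 3.58.1 (R 4.3.3), genotype as the only term, variances following mean expression, p-values two-sided and adjusted by Benjamini-Hochberg over all genes tested. Fold changes on this scale understate changes of low genes. All members are named, with Atf4. From the neighbouring lists come genes past the threshold or that of smallest p. Lbr, Dhdds, Vps51 and other overlapping features were named after their values were seen. The number of symbols matched by synonym was 2. Lists and branches are described without tests. The fit was run on simulated data with known changes. The share recovered is not given here, so that run does not show whether differences as small as those of the members would be called. Tables, motif searches and plots used Python 3.11.15, pandas 2.3.3, numpy 2.4.6 and matplotlib 3.10.9. TPM keeps no depth, so no counting interval is given. All samples carry batch label 1. Alternatives covered pseudocount, filter, scaling, variance trend, library weights, replicate block and each library left out. Same-numbered libraries did not deviate together (correlations from -0.0823 to 0.0351).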

Additional observations from a re-analysis of the deposited data

Results flagged for a closer look

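Among 68 groups of 4 libraries, taken over the members, Atf4 and the branch means, a library stood far from the rest of its group 4 times, against 3.4 by chance at the 5% rate used. Control replicate 1 had 6.36 TPM of Tm7sf2, where the other controls had 5.69 to 5.74 TPM. It also had 23.4 TPM of Stard4, above 21.6 to 21.8 TPM in the rest of its group. Mutant replicate 3 had 13.5 TPM of Ebp, below the 14.9 to 15.1 TPM of the other mutants. Mutant replicate 1 had 95.7 TPM of Acly, where the other mutants had 88.3 to 89.5 TPM.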

How the results depend on the processing

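Over 17 alternatives, 0 members passed in any, with adjusted p of at least 0.608. The count over all genes fell from 6 to 0 with no filter, no variance trend and the replicate block, and to 0 to 3 with each library left out. The replicate block changed no call among the members. Titles give a number but no litter, so it pairs nothing here. With a library left out, the sterol median ranged from -0.0089 to 0.034 and the fatty acid median from 0.0030 to 0.039. The count of members at an unadjusted p below 0.05, 4 as reported, was 1 to 6 and depended on most libraries: it was 2 without control replicate 2 or 4 or mutant replicate 1 or 2, 1 without mutant replicate 4, and 2 with quantile normalization, no variance trend or the replicate block. This recount was added after seeing the data. Dhcr7 stayed below 0.05 in all 17, Hsd17b7 in 12, Fdps in 9 and Idi1 in 8.

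Of the 30 members, 12 kept their sign throughout, among them Dhcr7, Idi1, Fdps, Hsd17b7, Ebp and Acacb. The other 18, near 0 except Insig2, changed sign at least once. With all libraries, the log2 fold change of Scd1 became 0.0059 (pseudocount 0.1), 0.0039 (median-of-ratios), 0.042 (quantile) and 0.012 (library weights). Sqle became -0.0049 (quantile), -0.0027 (without mitochondrially encoded and haemoglobin genes) and -0.014 (weights). Hmgcs1 became -0.0047 (quantile) and Mvd -0.015 (weights). Insig1 became -0.0046 and Scap -7.8e-05 without those genes, and -0.00041 and -0.0028 with weights.

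With each library left out, the log2 fold change ranged from -0.030 to 0.041 for Hmgcs1, -0.057 to 0.029 for Pmvk, -0.030 to 0.081 for Mvd, -0.014 to 0.070 for Fdft1, -0.014 to 0.034 for Sqle and -0.072 to 0.025 for Lss. It ranged from -0.014 to 0.028 for Cyp51, -0.061 to 0.075 for Tm7sf2, -0.028 to 0.10 for Msmo1, -0.047 to 0.070 for Insig1, -0.15 to 0.27 for Insig2, -0.050 to 0.042 for Srebf1 and -0.092 to 0.0048 for Srebf2. It ranged from -0.027 to 0.036 for Scap, -0.015 to 0.076 for Fasn, -0.063 to 0.089 for Scd1, -0.036 to 0.0025 for Acly and -0.028 to 0.061 for Acss2. Members that kept their sign ranged from 0.015 to 0.064 for Mvk, 0.081 to 0.15 for Idi1, 0.087 to 0.14 for Fdps, 0.039 to 0.076 for Nsdhl, -0.19 to -0.11 for Hsd17b7, -0.12 to -0.065 for Ebp, 0.016 to 0.044 for Sc5d and 0.20 to 0.33 for Dhcr7. The rest ranged from 0.028 to 0.067 for Stard4, 0.038 to 0.10 for Acaca, -0.11 to -0.069 for Acacb and 0.0030 to 0.073 for Scd2. For Lbr, no member, it ranged from -0.013 to 0.038. Atf4 had a positive log2 fold change in all 17, but its adjusted p was 0.354 with no filter, 0.0611 with quantile normalization, 0.0585 without mitochondrially encoded and haemoglobin genes, 0.215 with no variance trend and 0.249 with the replicate block. Why values moved was not tested. Read depth is unknown and sets no stated limit.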
